A study of Rattus norvegicus with 9 samples.

Results

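The Trpv1 and Trpv3 channel locus was taken as the accessible regions of rat chromosome 10 that lay wholly between 59.7 and 59.92 Mb of the rn6 genome, and this window held 28 of the 186719 regions in the table of normalized reads. The 1 Mb on each side, from 58.7 to 59.7 Mb and from 59.92 to 60.92 Mb, held 81 and 13 regions and served as flanks. The window was bounded by position alone, but it was chosen with earlier results of these data known. No region crossed its edges. ATAC-seq, in which the Tn5 transposase inserts adaptors into open DNA, was used to read chromatin accessibility in dorsal root ganglia (DRGs) of adult female Sprague-Dawley rats. The CCI group held 2 rats with a chronic constriction injury, a loose ligation of the sciatic nerve, whose ganglia on the injured side were taken 14 days after surgery. The naive group held 3 rats without surgery, and each ATAC-seq library came from the L4 to L6 ganglia of 1 rat. Ages appear in the sources both as 8 to 10 weeks and as 12 to 16 weeks. H3K4me1, a histone mark of enhancers and of the edges of promoters, was mapped by ChIP-seq in 2 samples of each group, every sample a pool of 3 rats, and was deposited as 1 merged list of regions.

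Trpv1 encodes the capsaicin receptor, a cation channel of nociceptors that opens on noxious heat, acid and vanilloids and that carries much of the heat hypersensitivity seen after inflammation. Trpv3 encodes a related channel that opens on warmth and is best known from keratinocytes of the skin. Such genes are commonly under the control of promoters and of distal enhancers, which appear as short stretches of accessible DNA, often with H3K4me1 around them. Whole ganglia hold neurons, satellite glia, Schwann cells and immune cells, so that more open chromatin per cell and more cells of a type cannot be told apart in these libraries.

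In RefSeq's gene table for the GRCr8 build, Trpv1 and Trpv3 are direct neighbours on the same strand. The gene order leading to them is P2rx5, Emc6, Tax1bp3, Ctns and Shpk, and after Trpv3 come Aspa, which encodes the enzyme that splits N-acetylaspartate, and Spata22, which acts in meiosis. Of the 40 protein-coding genes after Spata22, 39 carry names of olfactory receptors. GRCr8 differs from the rn6 build of the deposited regions, so the table was used for gene order alone. Which accessible region holds a promoter, exon or intron of Trpv1 or Trpv3 was therefore not determined, and regions are given by their rn6 positions.

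Accessible regions were denser in the window than in its flanks. It held 12.7 regions per 100 kb, against 8.10 in the lower flank and 1.30 in the upper flank. Lengths ran from 150 to 1360 bp (median 224 bp), and the regions together covered 10127 bp. After the last region of the window no accessible region was listed for 172 kb. Within the window, the widest gaps between neighbouring regions were 27.8 kb and 25.4 kb.

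Normalized reads are reads after division by the size factor of a library, and multiplying back gave the reads themselves. Over the window, CCI rats 1 and 2 had 2198 and 2699 reads, and naive rats 1, 2 and 3 had 3614, 1288 and 1612 reads. The median region of the window had 27.5 and 39 reads in the CCI rats and 41.5, 15 and 17.5 reads in the naive rats. The smallest number of reads over any region of the window in any rat was 3, so that no value lay at the lowest deposited value of 1 read. Naive rat 2 was the shallowest library and naive rat 1 the deepest. Summed normalized reads over the window were 1467 and 1236 in the CCI rats and 1181, 1288 and 1059 in the naive rats. The groups overlapped in this sum, since CCI rat 2 lay below naive rat 2.

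The signal of the window was concentrated in a few regions. The 3 strongest held 56.8% and 52.0% of the window's reads in the CCI rats and 53.0%, 55.8% and 53.2% in the naive rats, so this share was much the same in all 5 libraries. By mean signal, 6 of the 28 regions belonged to the top 10% of all regions of the genome and 4 lay below the genome's median.

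The strongest and longest region of the window was chr10:59742857-59744216, which spanned 1360 bp and lay wholly inside an H3K4me1 region of 7035 bp. Its normalized reads were 346 and 255 in the CCI rats and 224, 246 and 224 in the naive rats. Both CCI rats were above all naive rats, but CCI rat 2 exceeded naive rat 2 only narrowly. The log2 fold change of CCI over naive was 0.36 (SE 0.263), and the limma p was 0.170 with a Benjamini-Hochberg adjusted p of 0.606 over all regions. It was 0.14 without CCI rat 1 and 0.58 without CCI rat 2, and -0.08 after centring each rat on the regions within 1 Mb. Next in strength was chr10:59764757-59765570, with 289 and 234 normalized reads after CCI and 205, 243 and 219 in naive rats. Here the groups overlapped, with CCI rat 2 below naive rat 2. At chr10:59766661-59767559, values were 198 and 154 after CCI and 197, 230 and 120 in naive rats. The naive rats enclosed both CCI rats at this region, and its log2 fold change was -0.01. These neighbouring regions, 1090 bp apart, shared the longest H3K4me1 region of the window, 11490 bp from 59758605 to 59770094. Ranked 4 by signal was chr10:59847166-59847765, with 119 and 107 after CCI and 112, 129 and 82.8 in naive rats, again with overlapping groups.

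Accessibility after CCI was compared with naive rats by limma on log2(normalized reads + 1), fitted over all 186719 regions, and a region was called at an unadjusted two-sided p below 0.01. This scale understates changes of regions with few reads. In the window 2 of the 28 regions were called, both higher after CCI, which was 7.14%. Over all regions 2.13% were called higher by the same rule, and over chromosome 10 it was 8.03%. The window's share was thus close to that of its own chromosome. No region of the window was called lower, against 1.46% of all regions and 0.27% of chromosome 10. At a Benjamini-Hochberg adjusted p below 0.05, 0.344% of all regions passed and 0 of the 28 did by limma, and the counts by edgeR and DESeq2 were also 0. At an unadjusted p below 0.05 the counts were 3, 3 and 2 of 28 by limma, edgeR and DESeq2, close to the shares of all regions, which were 11.1%, 11.8% and 6.21%. By limma, 1757 of the 7780 regions of chromosome 10 had a p below 0.05, a larger share than in the window. In the lower flank it was 12 of 81. The lowest adjusted p in the window was 0.182 by limma. When each rat was centred on the regions within 1 Mb, neither called region kept a p below 0.01, and the split of calls turned from 2 higher and 0 lower to 0 higher and 2 lower. That centring lowered every log2 fold change of the window by 0.41 to 0.50, and over all regions it left 0.451% called higher and 3.06% called lower. Centring on chromosome 10, added after the values were seen, also gave 0 higher and 2 lower of the 28, against 0.0825% higher and 9.44% lower over all regions.

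The called region with the lower p was chr10:59798785-59799089, 305 bp long. It had 54 and 57 reads in CCI rats 1 and 2, and 46, 20 and 14 reads in naive rats 1, 2 and 3. Normalized reads were 36.1 and 26.1 after CCI and 15.0, 20 and 9.20 in naive rats. Both CCI rats were above all naive rats, with CCI rat 1 the highest and naive rat 3 the lowest. The means were 31.1 ± 7.04 (SD, n = 2) in CCI rats and 14.7 ± 5.41 (SD, n = 3) in the naive group. CCI over naive gave a log2 fold change of 1.07 (SE 0.362), with a limma p of 0.00307 and an adjusted p of 0.182. Leaving out each rat in turn gave log2 fold changes from 0.79 to 1.31, and p rose above 0.01 without CCI rat 1 (0.0790) and without naive rat 3 (0.0303). After centring on the regions within 1 Mb the log2 fold change was 0.60 and the limma p was 0.113. On the recovered reads, p was 0.00264 by edgeR and 0.0274 by DESeq2, and by limma without a trend it was 0.0419. The log2 fold change was 1.09 by DESeq2 and 1.07 by limma without a trend.

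This region sat on the edge of an H3K4me1 region of 3898 bp, from 59798947 to 59802844, which covered 143 bp (46.9%) of it. A smaller accessible region, chr10:59798401-59798605, lay 179 bp before it and outside the mark, and was picked as a neighbour after its values were seen. That neighbour had 11.4 and 16.5 normalized reads after CCI and 7.84, 5 and 10.5 in naive rats, and both CCI rats were above all naive rats here too. Its log2 fold change was 0.79 with a limma p of 0.117, so it was not called. At the other side, inside the same H3K4me1 region, chr10:59800968-59801144 had 11.4 and 17.4 after CCI and 12.4, 8 and 10.5 in naive rats. CCI rat 1 lay among the naive rats there, and the log2 fold change was 0.43. The 3 neighbours thus had their means higher after CCI, and 1 of the 3 was called. Beyond them came 1 of the wide gaps, 25.4 kb without an accessible region.

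The other called region was chr10:59771976-59772125, at 150 bp the shortest length in the table, inside an H3K4me1 region of 1586 bp. It had 37 and 39 reads in the CCI rats and 26, 11 and 10 reads in the naive rats. Normalized reads were 24.7 and 17.9 after CCI and 8.49, 11 and 6.57 in naive rats. The groups did not overlap, and the lower CCI rat was well above the highest naive rat. The means were 21.3 ± 4.84 (SD, n = 2) and 8.69 ± 2.22 (SD, n = 3). The log2 fold change was 1.21 (SE 0.442), the largest of the window, with a limma p of 0.00625 and an adjusted p of 0.236. Leaving out each rat in turn gave log2 fold changes from 0.99 to 1.43, and p stayed below 0.01 only without naive rat 2, with its highest value, 0.107, without CCI rat 1. After centring on the regions within 1 Mb the log2 fold change was 0.77 and the limma p was 0.132. On the recovered reads, p was 0.00386 by edgeR and 0.0239 by DESeq2. The call was also lost by limma after median-of-ratios rescaling (p of 0.0119), after quantile normalization (0.0133) and without a trend (0.0173). The log2 fold change in these fits was 1.10, 1.10 and 1.21, and by DESeq2 it was 1.31. With 2 rats against 3, the smallest p that exact permutation of a region's values allows is 0.1.

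The fold change ranked next was at chr10:59829272-59829494, 400 bp from the nearest H3K4me1 region. Its normalized reads were 24.7 and 17.9 after CCI and 9.48, 12 and 12.5 in naive rats. The groups did not overlap, the log2 fold change was 0.85 (SE 0.409) and the limma p of 0.0388 missed the threshold. Counting all regions of the window, both CCI rats were above all naive rats in 6 of the 28 (21.4%), against 18.2% of all regions and 37% of chromosome 10. In 0 of the 28 were both CCI rats below all naive rats, against 11% of all regions, 3.26% of chromosome 10. In the flanks both CCI rats were above all naive rats in 25 of 81 regions (30.9%) below the window and 0 of 13 above it, and below all naive rats in 0 of 81 and 2 of 13.

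Log2 fold changes below 0 were found in 9 of the 28 regions and reached -0.47. The lowest was at chr10:59859176-59859325, 4577 bp from the nearest H3K4me1 region, with 2.67 and 6.41 normalized reads after CCI and 9.80, 4 and 5.91 in naive rats. CCI rat 2 lay among the naive rats, and both CCI values rested on few reads, 4 and 14. At chr10:59893003-59893205, the last region of the window, values were 14.02 and 6.87 after CCI and 9.80, 9 and 24.3 in naive rats, for a log2 fold change of -0.36. Naive rat 3 stood well above the other libraries there. At chr10:59715459-59715669, values were 8.01 and 3.66 after CCI and 9.15, 4 and 9.86 in naive rats, for a log2 fold change of -0.34. The groups overlapped at all 3 of these regions, and none was called. Their direction rested on single libraries, since the log2 fold change was 0.04 without CCI rat 1 at 59859176, 0.10 without CCI rat 2 and 0.07 without naive rat 3 at 59893003, and 0.14 without CCI rat 2 at 59715459.

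The window as a whole was then set against its flanks. The median log2 fold change of its 28 regions was 0.33, with quartiles of -0.02 and 0.53, and 19 regions (67.9%) were above 0. After centring on the regions within 1 Mb the median was -0.11 with 9 regions above 0 and 19 below, and after centring on chromosome 10 it was -0.14 with the same split. Both sets include the window's own regions, so the window was in part centred on itself. The median was 0.13 over all regions and 0.49 over chromosome 10, so the window lay above the genome and below its own chromosome. Median-of-ratios rescaling moved the median of all regions to 0.03 and that of the window to 0.22, and quantile normalization moved them to 0.01 and 0.21. In the lower flank the median was 0.37, with 65 of 81 regions (80.2%) above 0. In the upper flank it was -0.54, with 2 of 13 regions (15.4%) above 0. The window was thus close to the lower flank and far from the upper flank, and its median exceeded that of both flanks together, 0.26, by 0.07. This difference changed sign in other settings, to -0.13 with flanks of 2 Mb. Without CCI rat 1 the median of the window was 0.17.

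The same levels were read in each rat. The median log2(normalized reads + 1) of the window was 4.27 and 4.24 in the CCI rats and 3.86, 3.997 and 3.64 in the naive rats, and the groups did not overlap. In the lower flank it was 4.25 and 4.09 after CCI and 3.64, 3.59 and 3.89 in naive rats, also without overlap. In the upper flank it was 2.12 and 2.22 after CCI and 2.91, 2.32 and 3.35 in naive rats, with both CCI rats below all naive rats. The 13 upper regions were weak, with at most 22 normalized reads in any rat and 5 values at the lowest deposited value, 1 read. No library held a value below 1 read, so whether such a value stood for no reads could not be told. Subtracting the median of both flanks from that of the window left 0.30 and 0.42 in the CCI rats and 0.43, 0.68 and -0.04 in the naive rats. The naive rats enclosed the CCI rats in this difference.

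The share of reads gave a comparison that needs no scaling between libraries. Of all reads over window and flanks, the window held 28.8% (95% exact Clopper-Pearson interval 27.8 to 29.9%) in CCI rat 1 and 30.1% (29.2 to 31.1%) in CCI rat 2. In naive rats 1, 2 and 3 it held 32.4% (31.5 to 33.3%), 30.4% (29.0 to 31.8%) and 29.2% (28.0 to 30.4%). Group means were 29.5% ± 0.892 (SD, n = 2) for CCI rats and 30.7% ± 1.63 (SD, n = 3) for naive rats. CCI rat 1 had the lowest share, CCI rat 2 fell between naive rats 2 and 3, and the difference of CCI minus naive, -1.20 percentage points, was smaller than the SD among naive rats. Leaving out each rat in turn gave -0.324 (without naive rat 1) to -1.94 points (without naive rat 3), and without naive rat 3 both CCI rats lay below both naive rats left. The intervals cover counting error only.

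Along the lower flank, bins of 200 kb had median log2 fold changes of 0.15, 0.34, 0.28, 0.80 and 0.48 going towards the window, over 22, 16, 8, 13 and 22 regions. The window's 0.33 fell inside this range. Every bin of the lower flank held regions with both CCI rats above all naive rats, between 3 and 6 a bin, and none with both below. Over the lower flank 30.9% were above, against 37% of chromosome 10, where 3.26% were below. Beyond the window the first bin held a single region, with a log2 fold change of 0.74 on no more than 11.5 normalized reads. The bins from 60.12 Mb on, of 2, 3, 2 and 5 regions, had medians of -0.18, -0.54, -0.62 and -1.39. The step from positive to negative medians thus lay past the window, in the sparse stretch, where no bin held more than 5 regions.

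The flank regions with the lowest p in each direction are given for comparison. In the lower flank, chr10:59029860-59030095 had 25.4 and 19.2 normalized reads after CCI and 9.15, 6 and 11.8 in naive rats, for a log2 fold change of 1.25 and a limma p of 0.00401. Closer to the window, chr10:59646846-59647135 had 26.7 and 11.9 after CCI and 9.15, 7 and 4.60 in naive rats, for 1.30 and a limma p of 0.00843. Both lay outside H3K4me1, unlike the called regions of the window, a contrast of 2 regions against 2. They were the only calls among the 94 flank regions, a share of 2.13%, against 2.13% of all regions and 8.03% of chromosome 10. In the other direction, chr10:60776578-60776794 in the upper flank had 0.670 and 0.460 after CCI and 4.57, 4 and 14.5 in naive rats, with a limma p of 0.0383. Both CCI values there were the lowest deposited value, 1 read. At chr10:60834168-60834379 the values were 0.670 and 5.95 against 9.48, 5 and 10.5, with a limma p of 0.0639, and the groups overlapped.

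The flank regions most like the window in their pattern over the 5 rats, by the root mean square difference of centred log2(normalized reads + 1), were chr10:59259658-59260594, chr10:59676862-59677090 and chr10:59360015-59361385. Their differences were 0.109, 0.121 and 0.122. The closest had 97.5 and 94.8 normalized reads after CCI and 90.2, 93 and 86.1 in naive rats, nearly level in all 5. This likeness was taken over 5 libraries and is a description.

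Of the 28 accessible regions of the window, 15 (53.6%) overlapped an H3K4me1 region by at least 1 bp, and 12 of these lay wholly inside the mark. The share was 50.6% (41 of 81) in the lower flank, 0 of 13 in the upper flank, 45.8% on chromosome 10 and 31.3% over all regions. H3K4me1 regions covered 23.6% of the window, 13.2% of the lower flank and 1.60% of the upper flank. The window held 32 H3K4me1 regions, of which 12 overlapped an accessible region and 20 did not. In 3 of the 12 lay a pair of accessible regions. The 13 accessible regions outside the mark were 327 to 4577 bp from the nearest H3K4me1 region, with a median distance of 902 bp. Since the list merged CCI and naive samples, H3K4me1 itself could not be compared between groups.

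Accessible regions with H3K4me1 were longer and stronger, with medians of 314 bp and 23.5 normalized reads against 205 bp and 11.6 for the others. Their median log2 fold changes were 0.31 and 0.40. When the 58445 regions with H3K4me1 were fitted alone, 3.36% were called higher after CCI, and of the window's 15 the same 2 were called, with adjusted p by limma of 0.117 at chr10:59798785-59799089 and 0.150 at chr10:59771976-59772125. These 2 were 13.3% of the 15. In the fit over all regions, 8.03% of chromosome 10 and 0 of the 41 marked regions of the lower flank were called higher. The share among marked regions of chromosome 10 was not taken. Of these 15 regions, 3 had a log2 fold change below 0. The lowest of them was -0.20 at chr10:59887752-59888724, where values were 68.1 and 73.3 after CCI and 80.7, 73 and 91.3 in naive rats. CCI rat 2 barely exceeded naive rat 2 there, so the groups overlapped. Its partner in the same 4794-bp H3K4me1 region, chr10:59887119-59887269, had 8.01 and 7.78 after CCI and 14.4, 6 and 7.23 in naive rats, with naive rat 1 alone above the rest.

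Near the middle of the window, 3 further marked regions lay close together. At chr10:59844745-59845058, values were 39.4 and 23.8 after CCI and 29.4, 21 and 30.2 in naive rats. At chr10:59846076-59846497, over the shortest H3K4me1 region with an accessible partner, 256 bp, values were 44.1 and 52.7 against 33.7, 46 and 26.9. The groups overlapped at both, with log2 fold changes of 0.20 and 0.46. The former was -0.15 without CCI rat 1 and 0.55 without CCI rat 2. The latter stayed between 0.285 and 0.66 when each rat was left out. The third marked region was the strong one at 59847166, whose log2 fold change was 0.09, and -0.09 without naive rat 3.

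The remaining marked regions were spread over the window. At chr10:59725351-59725756, values were 24.7 and 23.4 after CCI and 19.3, 20 and 30.2 in naive rats, with naive rat 3 the highest. At chr10:59752384-59752539, they were 17.4 and 9.61 against 15.4, 3 and 13.8, the lowest being 3 reads in the shallowest library. Neither group stood apart at these regions. At chr10:59782936-59783202, values were 26.7 and 20.1 after CCI and 21.2, 30 and 9.86 in naive rats, and the naive rats enclosed the CCI rats. At chr10:59853408-59853567, they were 13.4 and 15.6 against 7.51, 16 and 5.91, with naive rat 2 at the level of the CCI rats. Log2 fold changes of the 4 were 0.08, 0.50, 0.31 and 0.63, and none was called. Leaving out a single naive rat turned the sign of all but the last. The value was -0.03 without naive rat 1 at 59725351, -0.16 without naive rat 2 at 59752384 and -0.12 without naive rat 3 at 59782936. At 59853408 it stayed between 0.36 and 1.01. The 9 regions of the window that are neither marked nor among the strongest, longest or most changed had log2 fold changes of -0.22 to 0.79, 6 of them above 0, and normalized reads from 3 to 73.

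After centring on the regions within 1 Mb, the calls in the window were chr10:59784196-59784706 and chr10:59887752-59888724, both lower after CCI. Under this centring 1.59% of chromosome 10 and 3.06% of all regions were called lower. The former was singled out after its values were seen. It had 56.7 and 46.7 normalized reads after CCI and 63.7, 73 and 46.7 in naive rats, so that naive rat 3 was level with CCI rat 2. Its log2 fold change was lowered by 0.45 with the centring, from -0.22 to -0.67 (limma p of 0.00888, adjusted p of 0.271). For chr10:59887752-59888724 it went from -0.20 to -0.66, with a limma p of 0.00548 and an adjusted p of 0.217. Neither was called in the fit without centring.

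Among 22 TRP channel genes looked for in the gene lists that accompany the study, as read here in shortened form, a region with an rn6 position was found for Trpv2 alone. No listed position was found for Trpv1 or Trpv3 there, which says nothing of what the study observed at these genes. Trpv2 encodes another channel of the family and lies on the same chromosome, far below the window. Its region chr10:48903403-48904205 had 59.4 and 44.4 normalized reads after CCI and 25.5, 32 and 21.0 in naive rats. Both CCI rats were above all naive rats, and the log2 fold change was 0.97. Because the study listed this region for its difference in these same libraries, the values are a description and support nothing.

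Of 16 genes that mark cell types of the ganglion, 3 had a region with an rn6 position in the same lists. Regions of Scn11a, a sodium channel gene of nociceptors, and of Prph, which encodes the neuronal filament peripherin, had reads in all 5 rats, with 6 reads over Scn11a in naive rat 2 against a median of 9 per region in that library. Accessibility was not called in single rats here. Scn11a had 30.0 and 25.6 normalized reads after CCI and 7.51, 6 and 12.5 in naive rats, and Prph had 66.8 and 58.1 against 22.5, 35 and 21.7. A region of Mbp, which encodes a protein of Schwann cell myelin, had 56.7 and 44.4 against 87.9, 90 and 80.2. The neuronal regions were thus higher and the myelin region lower in both CCI rats, and the study had listed all 3 for that difference. Whether the share of neuronal nuclei in the libraries bears on the values of the window was not tested.

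Promoters of both genes are shown since the rule named the window for these channels, although their place among the accessible regions was not determined. Both were matched by symbol in RefSeq's promoter table for GRCr8 and are given as the 250 bases before the gene's start on the plus strand. The letters searched, on both strands, were TGANTCA for AP-1, TTGCNNAA for C/EBP, TGTGGT for RUNX, GGGCGG for SP1, TATAAA for the TATA box and CCAAT for the CCAAT box, and capitals mark the matches.
Trpv1: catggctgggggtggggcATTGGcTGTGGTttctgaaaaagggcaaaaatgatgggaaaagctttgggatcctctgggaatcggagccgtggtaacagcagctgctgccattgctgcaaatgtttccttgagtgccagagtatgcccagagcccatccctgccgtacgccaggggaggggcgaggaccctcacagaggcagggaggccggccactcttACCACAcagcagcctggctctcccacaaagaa
Trpv3: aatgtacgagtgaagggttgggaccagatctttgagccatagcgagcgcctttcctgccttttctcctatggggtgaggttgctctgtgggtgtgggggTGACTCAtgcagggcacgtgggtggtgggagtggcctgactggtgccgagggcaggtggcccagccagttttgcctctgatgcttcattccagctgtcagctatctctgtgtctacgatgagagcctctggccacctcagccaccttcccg
The Trpv1 stretch held 2 matches to RUNX, at 226 to 221 and at 32 to 27 bases before the start, and 1 to the CCAAT box, at 232 to 228. The Trpv3 stretch held 1 match to AP-1, at 151 to 145 bases before the start. Among 33469 promoters of the same length, 14.5% held the RUNX letters, 34.0% the CCAAT box and 6.34% the AP-1 letters. Neither stretch held the letters for C/EBP, SP1 or the TATA box, found in 9.22%, 30.5% and 12.9% of promoters. The share of G and C was 58.4% and 58.8%, against a median of 51.2%, with 6 and 7 CpG dinucleotides against a median of 5. A match to letters is a description and shows no binding.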

How the data were processed

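For ATAC-seq, the authors used Bowtie2 to align trimmed reads to rn6, dropped duplicates, called regions with MACS2 and deposited the signal of each library in the merged regions, as reads divided by a size factor. The size factors were 1.50 and 2.18 for CCI rats 1 and 2 and 3.06, 1.00 and 1.52 for naive rats 1, 2 and 3. Whole reads were recovered by multiplying by them, and 100% of the values were whole within rounding. Reads in regions ranged from 4633807 to 13248437 a library, and counting error limits the precision of weak regions. H3K4me1 regions came merged, without values per sample. The group sizes follow the sample labels, and the paper's text gives them in one place as labelled, in another the other way round and in another as 3 in each group. Any further CCI library was not analysed here.

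The comparison used limma 3.58.1 in R 4.3.3 over all regions with a pseudocount of 1, a mean-variance trend and no covariates. Overlaps were found with bedtools 2.31.1. Intervals, medians and motif searches used Python 3.11.15 with numpy 2.4.6, pandas 2.3.3 and scipy 1.17.1. edgeR 4.0.16 and DESeq2 1.42.0 were run on the recovered reads as alternatives. The other alternatives were other thresholds, pseudocounts of 0.1 and 10, median-of-ratios and quantile scaling, no trend, centring on the regions within 1 Mb or on chromosome 10 (the latter added after the values were seen), fits of marked regions alone, a filter on the weakest 25%, other flanks and overlaps, a replicate block, and leaving out each rat.

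Regions given singly were those with a p below 0.01, the 3 highest and 3 lowest log2 fold changes, the 3 highest means, the longest region and every region with H3K4me1, and 2 more were chosen after their values were seen. In the flanks they were the 2 lowest p in each direction and the 3 patterns most like the window. The members and lists were chosen with earlier results of these data known. Gene positions for rn6 and RNA levels were not used here.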

Additional observations from a re-analysis of the deposited data

How the results depend on the processing

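The 2 called regions of the window remained the 2 calls with edgeR, with pseudocounts of 0.1 and 10, without the weakest 25% of regions and in the fit of marked regions alone. There was 1 call after median-of-ratios rescaling and 1 after quantile normalization, each time chr10:59798785-59799089, and 0 with DESeq2, in limma without a trend and at an adjusted p below 0.05, while a p below 0.05 gave 3. Over all 186719 regions, 3968 were called higher in the first fit, 2353 after median-of-ratios rescaling and 4359 after quantile normalization. Higher calls over all regions numbered 1327 with DESeq2, 1861 in limma without a trend and 3125 without naive rat 3. Leaving out each rat gave 0 to 2 calls, with 0 without CCI rat 1 or naive rat 3. With a CCI rat left out, the lone CCI rat is assumed to vary like the naive rats. Centring on the regions within 1 Mb and centring on chromosome 10, the latter chosen after seeing the data, each gave 2 calls, all lower after CCI and none of them shared with the first 2. Over all regions these centrings called 3.06% and 9.44% lower.

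The median log2 fold change of the window, 0.33, was 0.17 to 0.34 without each rat in turn, lowest without CCI rat 1, and -0.11 and -0.14 after centring on the regions within 1 Mb and on chromosome 10, each with 9 regions above 0 and 19 below. Its difference from the flanks, 0.07, lay between -0.13 and 0.11 in the other settings, on either side of 0, and was 0.87 against the upper flank alone. The share of reads in the window differed by -1.20 percentage points (CCI minus naive), by -1.78 with flanks of 0.5 Mb, by -1.92 with flanks of 2 Mb and by -0.324 to -1.94 without each rat in turn, below 0 in all of these. Overlap with H3K4me1 was counted for 14 regions at an overlap of 50% and for 13 with H3K4me1 regions of at least 1 kb.

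With rats of the same number treated as a replicate block, 0 regions of the window were called and the median was 0.28. Deviations of same-numbered rats correlated at -0.06 and -0.06. The deviations of the 2 CCI rats mirror each other, so these values are not separate checks. The labels do not state that rats of the same number were paired. Depth and 2 CCI rats limit all single-region values, and the cause of the changed calls was not tested.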
